A study of Mus musculus with 20 samples.

Results

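Receptor tyrosine kinases were read out in FACS-purified prostate cancer cells from bone metastases of mice, as a list of 50 genes chosen by mouse symbol. The list was drawn up because Axl was already known to be higher in Resist in these same libraries, so its Resist vs. Naive values are a description. The question was which other receptors were expressed by tumor cells that had outgrown the anti-androgen enzalutamide, and which of them changed. Of the 50 genes, 45 were listed in at least 1 of the 3 deposited tables, out of 16978 named genes in all. Erbb4, Insrr, Fgfr4, Musk and Ros1 were not analysed here because no table used here listed them.

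All groups held the same cells, MycCaP-Bo, a bone-homing subline of the MycCaP mouse prostate cancer line, which came from a Myc-driven tumor model. The subline carries the fluorescent protein iRFP and luciferase, and was picked by repeated passage through FVB/N mice. Mice of 4 to 6 weeks received the cells by intracardiac injection at day -7, and CD45-iRFP+ cells were sorted from the metastases. The 4 groups were Naive (vehicle), Resist (enzalutamide at 30 mg/kg daily for 18 days), Resist-Mac (the same enzalutamide course plus liposomal clodronate, 1 mg per mouse, in the last 4 days) and Naive-Mac (4 days of clodronate without enzalutamide). Clodronate liposomes deplete macrophages. Each group had 5 libraries, and each library pooled cells from 3 mice. The labels do not say whether the libraries of a group came from separate sets of mice, so p-values measure the spread between these libraries. Naive and Resist libraries were batch 1 and shared a table, whereas Resist-Mac was batch 2 and Naive-Mac batch 3, each in a table of its own. In bulk RNA of this kind, a smaller share of cells that express a gene and less of its RNA per cell cannot be told apart.

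A receptor tyrosine kinase spans the membrane, binds a ligand outside the cell, pairs with a partner receptor and phosphorylates tyrosines on its own tail. Adaptors such as Grb2, Shc1 and Gab1 dock there and pass the signal to the RAS-ERK and PI3K-AKT cascades. In prostate cancer these receptors are known as a route by which cells can keep growth signals while the androgen receptor is blocked.

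Levels are given in FPKM, fragment counts scaled to transcript length and to the size of the library, so that levels of different genes can be set side by side. The summed FPKM of the listed genes was 396 ± 25.7 (SD, n = 5) in Naive and 417 ± 29.3 (SD, n = 5) in Resist libraries. Between 16 and 19 receptors reached 1 FPKM in each of these 10 libraries, and 10 to 12 reached 10 FPKM.

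Epha2, an ephrin-A receptor, had the highest mean in both groups. Its level was 73.66, 70.66, 132, 69.64 and 102.89 FPKM in Naive and 84.49, 67.62, 49.37, 62.33 and 56.97 FPKM in Resist libraries. Naive libraries reached higher, but the groups overlapped. Ddr1, a collagen receptor, came second, with 47.63, 54.61, 52.04, 53.25 and 54.41 FPKM in Naive and 65.92, 64.37, 59.2, 57.94 and 48.09 FPKM in Resist libraries. Its Resist values were spread more widely, and the groups overlapped. Met, the receptor for hepatocyte growth factor, was at 32.34, 30.99, 32.41, 25.21 and 35.42 FPKM in Naive and at 40.7, 52.09, 36.4, 40.82 and 29.29 FPKM in Resist libraries, where all but replicate 5 lay above the Naive libraries. Ryk, a Wnt receptor whose kinase domain is inactive, was the steadiest of these, at 28.92, 28.51, 28.96, 27.78 and 30.36 FPKM in Naive and at 33.07, 30.08, 30.82, 26.76 and 31.89 FPKM in Resist libraries. None of these 4 passed the test in Resist vs. Naive.

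**Figure D1:**
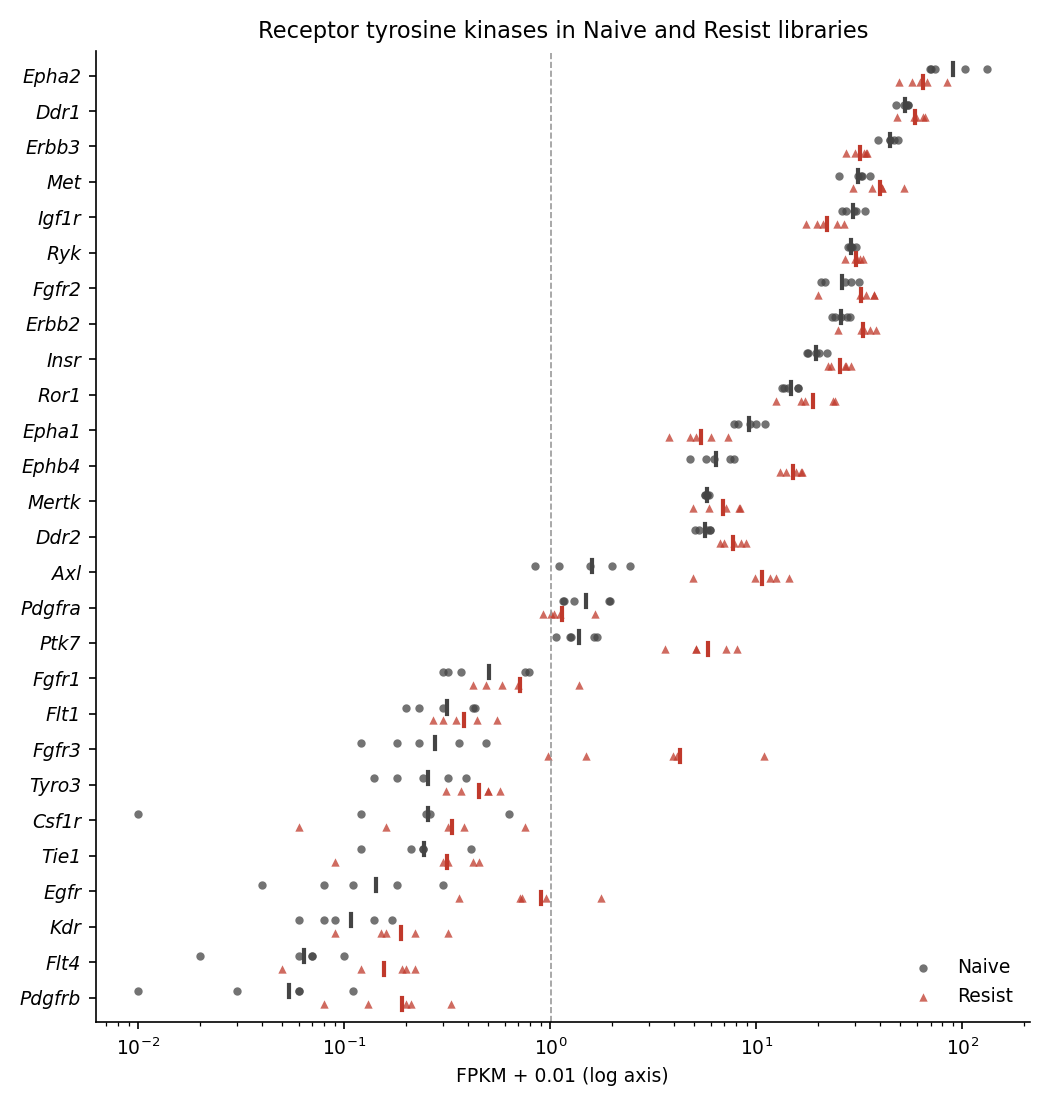
FPKM plus 0.01 on a log axis for each receptor with a mean of at least 0.1 FPKM in Naive or Resist, ordered by the Naive mean; points are libraries, short bars are group means, and the dashed line marks 1 FPKM. Axl, Ptk7, Fgfr3, Ephb4, Egfr and, by narrower margins, Insr and Ddr2 have Resist points wholly to the right of the Naive points, and Epha1 and Erbb3 wholly to the left.

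To compare Resist with Naive tumors, log2(FPKM + 1) was fitted with limma over the 10119 genes that averaged at least 1 FPKM. A gene was called where the p-value, adjusted by Benjamini and Hochberg's method, was under 0.05 and the fold exceeded 1.5. Of the 50 receptors, 44 were listed, 26 of these stayed under the filter and 18 were tested. Axl, Fgfr3, Ptk7 and Ephb4 were called higher in Resist and Epha1 lower, against a background over all genes tested of 5.25% higher and 1.11% lower. Axl was the reason for the list, and Fgfr3 passed the filter only through its Resist level, so neither is counted. Of the 16 other receptors, all with a mean of at least 1 FPKM in both groups, Ptk7 and Ephb4, 2 of 16, were called higher, against 4.42% of the 9862 genes at that level in both groups, and 1 of 16 was called lower, against 1.08%. The median log2 change was 0.24 over these 16 and 0.03 over the 9862 genes.

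Axl, a receptor of the TAM family that binds the vitamin K-dependent ligand Gas6, was listed at 1.55, 0.83, 1.99, 2.43 and 1.09 FPKM in Naive libraries. In Resist libraries it was at 9.82, 11.58, 14.41, 12.49 and 4.9 FPKM. Every Resist library lay above every Naive library, and replicate 5 was the lowest of the Resist group. The mean was 6.74-fold higher in Resist, and the log2 change was 2.14 (SE 0.25), given with no test since it prompted the list.

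Fgfr3, a receptor for fibroblast growth factors, had 0.17, 0.11, 0.48, 0.35 and 0.22 FPKM in Naive libraries. The Resist libraries had 10.85, 0.96, 4.11, 3.93 and 1.48 FPKM. No library overlapped, but the Resist group was the most uneven among the called receptors, with replicate 1 far above replicate 2. The log2 change was 1.77 (SE 0.38). No p-value is given, because Fgfr3 entered the fit only through its Resist level, with a Naive mean of 0.266 FPKM.

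Ptk7, a catalytically inactive receptor of Wnt and planar polarity signaling, was at 1.06, 1.68, 1.61, 1.25 and 1.23 FPKM in Naive and at 7.11, 5.11, 8.08, 3.59 and 5.11 FPKM in Resist libraries. The groups were apart, and the mean was 4.25-fold higher in Resist (log2 change 1.49, SE 0.17, limma adjusted p = 0.000247). Ephb4, the receptor for ephrin-B2, was at 6.19, 7.4, 5.68, 7.82 and 4.74 FPKM in Naive and at 16.48, 13.95, 16.69, 12.99 and 15.49 FPKM in Resist libraries. It was the most abundant of the receptors called higher, and its log2 change was 1.14 (SE 0.12, limma adjusted p = 0.000166).

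Epha1, an ephrin-A receptor of epithelia, went the other way. It was at 7.75, 10.97, 9.95, 9.25 and 8.17 FPKM in Naive libraries and at 4.75, 3.74, 5.06, 7.28 and 6.03 FPKM in Resist libraries. The highest Resist value lay just under the lowest Naive value, and the log2 change was -0.70 (SE 0.14, limma adjusted p = 0.00602). When all 4 groups shared one fit, the call was lost (adjusted p = 0.0771). Part of the Epha1 annotation, 236 of 3928 exonic bases, overlaps exons of Zyx on the opposite strand. No source used here says whether counting used strand. Zyx was at 31.4 ± 5.97 FPKM (SD, n = 5) in Naive and 28.5 ± 4.62 FPKM (SD, n = 5) in Resist. Fgfr3 shares 998 of 7158 exonic bases with the opposite-strand model G630022F23Rik, which no table used here listed, and Axl and Ptk7 share none with another gene.

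**Figure D2:**
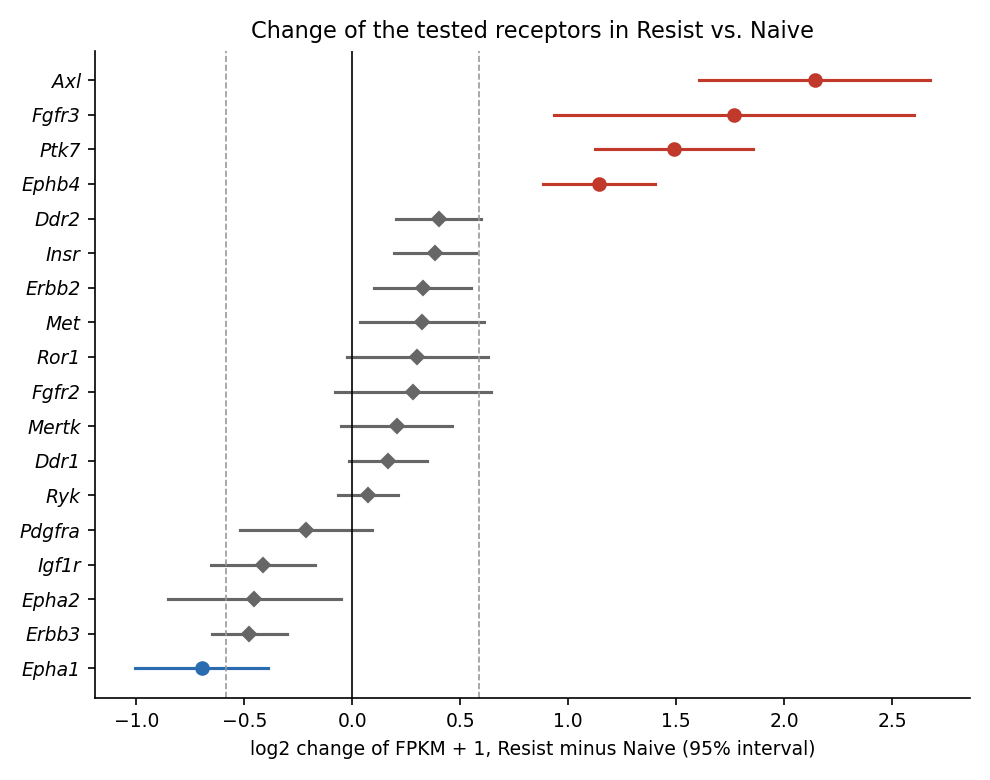
Log2 change of FPKM + 1 in Resist minus Naive with its 95% interval from limma for the 18 tested receptors; round points were called higher or lower, diamonds were not called, and the dashed lines mark a fold of 1.5. Axl (2.14), Fgfr3 (1.77), Ptk7 (1.49) and Ephb4 (1.14) stand apart from the remaining receptors, whose estimates lie between -0.70 and 0.40. Axl prompted the list and Fgfr3 passed the filter only through its Resist level. The intervals and call markers of these 2 are therefore a description and not a test.

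The stretches before the annotated start sites of the 5 called receptors are shown because 4 of the genes were higher in Resist. Axl lies on chromosome 7, Fgfr3 and Ephb4 on chromosome 5, Ptk7 on chromosome 17 and Epha1 on chromosome 6. The sequences are the 250 bases upstream of the RefSeq start site on build GRCm38.p6, read on the gene's strand, and capitals mark matches to the motifs searched. Of the 2 annotated Fgfr3 starts the first is shown. In the GENCODE annotation all 250 bases of that window lie in exons of Fgfr3 or G630022F23Rik. There Fgfr3 starts at base 33721674, inside the window, so part of the Fgfr3 sequence shown is annotated as Fgfr3 exon. The windows of Axl, Ptk7, Ephb4 and Epha1 held 0 exonic bases.
Axl, chr7:25788734-25788983, minus strand: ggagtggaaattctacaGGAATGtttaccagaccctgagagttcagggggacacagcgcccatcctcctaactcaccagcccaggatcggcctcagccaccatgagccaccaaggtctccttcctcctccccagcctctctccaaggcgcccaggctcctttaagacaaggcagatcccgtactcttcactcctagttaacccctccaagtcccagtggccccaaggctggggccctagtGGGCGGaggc
Fgfr3, chr5:33721474-33721723, plus strand: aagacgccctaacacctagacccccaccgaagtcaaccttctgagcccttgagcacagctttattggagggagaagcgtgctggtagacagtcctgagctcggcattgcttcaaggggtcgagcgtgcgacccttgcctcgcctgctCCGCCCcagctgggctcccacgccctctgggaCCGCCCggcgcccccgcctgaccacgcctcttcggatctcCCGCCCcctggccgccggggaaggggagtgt
Ptk7, chr17:46629505-46629754, minus strand: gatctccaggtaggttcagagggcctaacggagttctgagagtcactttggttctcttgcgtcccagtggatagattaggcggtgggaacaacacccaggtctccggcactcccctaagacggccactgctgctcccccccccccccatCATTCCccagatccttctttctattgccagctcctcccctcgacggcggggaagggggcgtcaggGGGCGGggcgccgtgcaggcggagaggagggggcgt
Ephb4, chr5:137349859-137350108, plus strand: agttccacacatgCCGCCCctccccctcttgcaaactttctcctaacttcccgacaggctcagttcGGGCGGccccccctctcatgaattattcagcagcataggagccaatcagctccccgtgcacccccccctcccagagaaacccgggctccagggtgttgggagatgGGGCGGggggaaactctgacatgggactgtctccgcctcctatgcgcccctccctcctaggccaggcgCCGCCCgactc
Epha1, chr6:42373269-42373518, minus strand: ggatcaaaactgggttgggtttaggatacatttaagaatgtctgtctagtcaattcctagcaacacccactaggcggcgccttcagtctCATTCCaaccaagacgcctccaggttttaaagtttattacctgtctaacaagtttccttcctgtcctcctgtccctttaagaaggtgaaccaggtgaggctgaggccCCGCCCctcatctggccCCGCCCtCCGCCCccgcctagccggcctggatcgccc
The motifs searched on both strands were Sp1 (GGGCGG), TEAD (GGAATG), AP-1 (TGANTCA), ETS (CCGGAA), the E-box CACGTG and an element of the androgen and glucocorticoid receptors (AGAACA). All 5 windows held Sp1 letters, which 32.7% of the 32851 RefSeq windows of this length held. Axl, Ptk7 and Epha1, the last of which fell, held TEAD letters, present in 12.6% of all windows. The Axl match lay 233 bases, the Ptk7 match 101 bases and the Epha1 match 161 bases before the start. The letters of the other 4 motifs, which 6.75%, 12.0%, 6.02% and 16.1% of all windows held in the order given, were not in these windows. Sp1 and TEAD matches did not overlap. The GC content was 60% for Axl, 66.8% for Fgfr3, 64% for Ptk7, 64% for Ephb4 and 54.4% for Epha1, against a median of 52.4%. A match of letters is a description and not evidence that a factor binds there.

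The other TAM receptors were not called. Mertk was at 5.87, 5.65, 5.63, 5.76 and 5.75 FPKM in Naive and at 7.14, 8.29, 8.18, 5.85 and 4.93 FPKM in Resist libraries, which overlapped (log2 change 0.21, 95% interval -0.05 to 0.46, limma adjusted p = 0.24). In Naive libraries Mertk was therefore the most abundant TAM receptor, and in 4 of 5 Resist libraries Axl was. Resist replicate 5 had 4.93 FPKM of Mertk and 4.9 FPKM of Axl. Tyro3 was under the filter, at 0.13, 0.38, 0.17, 0.31 and 0.23 FPKM in Naive and at 0.49, 0.3, 0.49, 0.56 and 0.36 FPKM in Resist libraries.

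The ligands of these receptors were nearly absent from the sorted cells. Gas6 was at 0 to 0.14 FPKM in Naive and 0 to 0.12 FPKM in Resist libraries, and Pros1, which encodes protein S, at 0.03 to 0.14 and 0 to 0.3 FPKM. Neither passed the filter.

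Among the ErbB receptors, which bind EGF-like ligands and neuregulins, Erbb3 and Erbb2 were abundant and Egfr was scarce. Erbb3, whose kinase is impaired and which signals through partners, was at 46.31, 48.78, 39.11, 44.27 and 44.67 FPKM in Naive and at 30.04, 34.13, 34.49, 33.11 and 27.36 FPKM in Resist libraries. Naive lay above Resist throughout. The log2 change of -0.48 (SE 0.08, limma adjusted p = 0.00219) stayed short of the fold of 1.5, and it passed only when the values were corrected for transcript length and GC content (-0.60). Erbb2, the ErbB receptor without a ligand of its own, had an estimate in the opposite direction, from 25.8 ± 2.13 FPKM (SD, n = 5) in Naive to 32.8 ± 4.95 FPKM (SD, n = 5) in Resist (log2 change 0.33, 95% interval 0.10 to 0.55, limma adjusted p = 0.045). It was not called, as its fold was under 1.5. Egfr was at 0.1, 0.03, 0.17, 0.29 and 0.07 FPKM in Naive and at 0.72, 1.76, 0.94, 0.7 and 0.35 FPKM in Resist libraries. These did not overlap, yet the mean over both groups was under 1 FPKM. With the filter lowered to 0.1 FPKM, Egfr was called as well (log2 change 0.71, SE 0.16, limma adjusted p = 0.0123). Egfr remained the least abundant of the 3 ErbB receptors in every library.

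The insulin receptor family moved in both directions, within small folds. Insr was at 17.61, 21.98, 17.74, 20.08 and 19.48 FPKM in Naive and at 22.26, 28.74, 27.15, 26.78 and 22.97 FPKM in Resist libraries, which did not overlap by a narrow margin (log2 change 0.38, SE 0.09, limma adjusted p = 0.0111). Igf1r, the receptor for insulin-like growth factors, was at 29.3 ± 2.97 FPKM (SD, n = 5) in Naive and 21.9 ± 3.75 FPKM (SD, n = 5) in Resist (log2 change -0.41, SE 0.11, limma adjusted p = 0.023). Neither was past the fold of 1.5.

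Ddr2, a receptor for fibrillar collagen, was at 5.77, 5.04, 5.96, 5.27 and 5.94 FPKM in Naive and at 6.63, 8.37, 8.89, 7.8 and 6.95 FPKM in Resist libraries. All Resist values were higher. The log2 change of 0.40 (SE 0.09, limma adjusted p = 0.0101) stayed under the fold of 1.5. Groups did not overlap for 8 of the 18 tested receptors, Axl and Fgfr3 among them, where 8.45% of all genes tested were apart with higher and 4.34% with lower Resist values. Of the 16 without Axl and Fgfr3, Ptk7, Ephb4, Insr and Ddr2, 4 of 16, had higher Resist values, against 7.79% of the genes with at least 1 FPKM in both groups, and Erbb3 and Epha1, 2 of 16, had lower values, against 4.41%.

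For the remaining abundant receptors the 95% interval of the change is given, since a missed threshold does not show equal levels. Met had an estimate of 0.32 (95% interval 0.04 to 0.61, limma adjusted p = 0.103), Fgfr2 of 0.28 (-0.08 to 0.64, adjusted p = 0.254), Ror1 of 0.30 (-0.02 to 0.63, adjusted p = 0.176) and Ddr1 of 0.16 (-0.02 to 0.34, adjusted p = 0.182). Epha2 had an estimate of -0.45 (-0.85 to -0.05, adjusted p = 0.103), and under the length and GC correction it was called lower (-0.59, adjusted p = 0.0418). Ryk had the narrowest interval, from -0.07 to 0.21. Pdgfra, a platelet-derived growth factor receptor near the filter, was at 1.14 to 1.93 FPKM in Naive and 0.91 to 1.63 FPKM in Resist libraries (adjusted p = 0.301).

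Of the 26 receptors listed under the filter, Egfr and Fgfr1 were the only ones to reach 1 FPKM in a Naive or Resist library, with highest values of 1.76 and 1.37 FPKM. Csf1r, the macrophage receptor for CSF1, reached 0.74, Tyro3 0.56, and the endothelial receptors Flt1, Tie1, Kdr, Flt4 and Tek reached 0.54, 0.44, 0.31, 0.21 and 0.1 FPKM. Pdgfrb, a receptor of pericytes and fibroblasts, reached 0.32 FPKM, Mst1r 0.19, the stem cell factor receptor Kit 0.18, Epha5 0.17 and Flt3 0.11 FPKM. Epha3 and Ephb6 reached 0.06, Ephb1 0.05, Ephb3 0.04, Epha4, Epha7 and Ret 0.03, Ror2 0.02, and Ephb2, Alk and Ntrk2 0.01 FPKM. Ltk was listed at 0 in all 10 libraries. Ntrk3 was listed only in the Naive-Mac table, where it reached 0.02 FPKM.

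RNA of other cell types was present and uneven. The prostate epithelial genes Krt8 (317 FPKM on average in Naive and 190 in Resist) and Foxa1 (87.5 and 98.7 FPKM) were abundant, whereas Krt18, Cdh1, Tmprss2 and Krt5 had means of at most 0.11 FPKM there and Epcam was not listed in that table. The 8 neutrophil markers, led by S100a8 and S100a9, summed to 168 to 1217 FPKM in Naive and 59.5 to 575 FPKM in Resist libraries, although the sort removed CD45+ cells. All 8 were above 0 in all of these libraries. The macrophage markers, 13 of 14 listed and 9 to 13 above 0, summed to 19.0 to 115 FPKM in Naive and 4.12 to 62.5 FPKM in Resist, of which Lyz2 was the largest part. Cd14 had means of 7.09 and 4.27 FPKM in Naive and Resist, Cd68 of 1.07 and 1.47 FPKM and Itgam of 1.54 and 1.06 FPKM. Apart from Lyz2, the other markers listed were lower, with C1qa, C1qb, C1qc, Adgre1, Aif1 and Mrc1 at means of at most 0.37 FPKM. In Resist replicates 1 to 5 the macrophage sum was 6.71, 4.12, 50.57, 62.49 and 24.92 FPKM. Replicates 3 and 4 had the highest of these sums and the highest Axl, and replicate 2 had the lowest sum with 11.58 FPKM of Axl. The erythroid markers, 6 of 8 listed and 4 or 5 above 0, summed to 53.8 to 106.5 FPKM in Naive and 106.3 to 199.4 FPKM in Resist. Nearly all of this was the globin Hba-a1, at 53.37 to 104.23 FPKM in Naive and 105.02 to 197.34 FPKM in Resist, which did not overlap. It reached 308.6 FPKM in Resist-Mac and 947.1 FPKM in Naive-Mac.

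Stromal and osteoblast markers, 13 of 13 listed and 8 to 11 above 0, summed to 11.4 to 17.1 FPKM in Naive and 11.6 to 40.4 FPKM in Resist, and the 9 endothelial markers, 7 to 9 of them above 0, to 1.52 to 3.57 and 1.11 to 8.24 FPKM. Runx2 and the collagens Col1a1 and Col1a2 led the stromal sum, and Sp7 and Bglap were at 0 in all Naive libraries. In Resist replicates 1 to 5 the stromal sum was 16.83, 11.56, 28.01, 25.21 and 40.42 FPKM and the endothelial sum 6.3, 1.11, 8.24, 6.73 and 4.52 FPKM. Replicate 3, with the highest endothelial sum, also had the highest Axl, Ptk7 and Ephb4. Replicate 2, with the lowest of both sums, had the lowest Fgfr3 (0.96 FPKM), and replicate 5, with the highest stromal sum, had the lowest Axl. Fgfr3 was highest in replicate 1 (10.85 FPKM), whose stromal sum was 16.83 FPKM, and was at 1.48 FPKM in replicate 5. Mast cell and progenitor markers summed to at most 4.8 FPKM, osteoclast markers to at most 9.37 FPKM and glial markers to at most 0.49 FPKM in the Naive and Resist libraries. The part of other cells in the receptor differences, Axl and Ephb4 included, was not tested. Without Naive replicate 1, the one library of these with a neutrophil sum over 1000 FPKM, the same counts of 4 higher and 1 lower were found. The 4 include Axl and Fgfr3, and of the 10131 genes tested in that fit 467 were called higher and 102 lower.

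**Figure D3:**
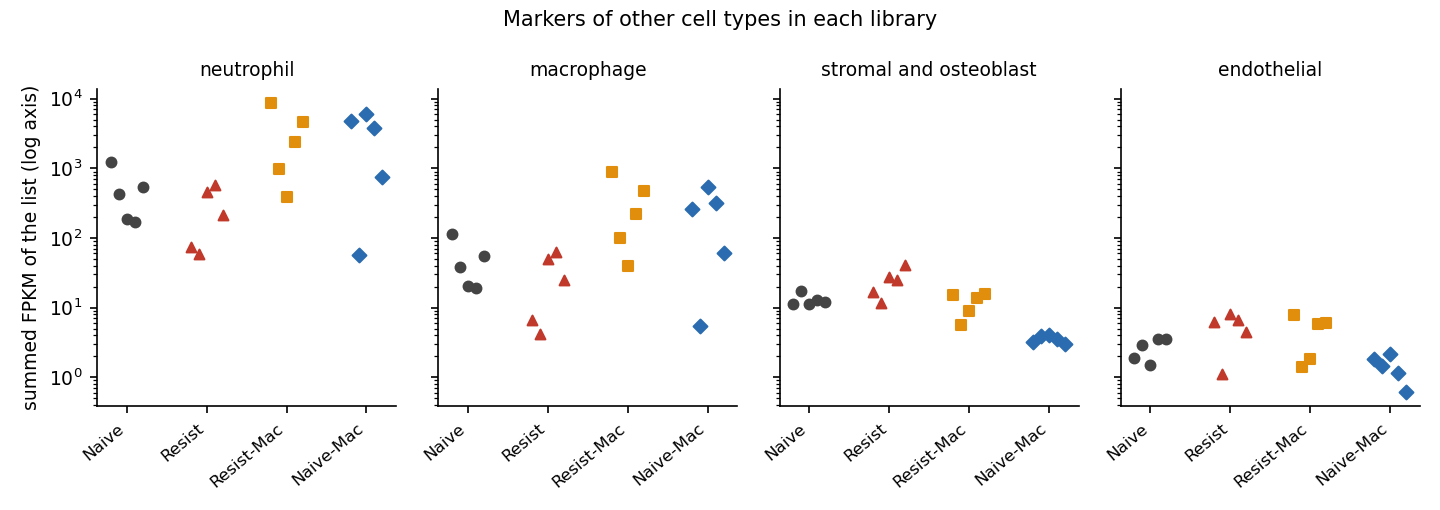
Summed FPKM of 4 marker lists on a log axis for each of the 5 libraries of the 4 groups. Neutrophil sums reach 8556 FPKM in Resist-Mac and 6074 FPKM in Naive-Mac, above the 1217 FPKM of the highest Naive library, and stromal sums are highest in Resist.

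The partners of the receptors were read from lists of ligands, co-receptors, adaptors, feedback and turnover genes, and ERK target transcripts. Of 64 ligands, 54 were listed and 23 tested, and Csf1 and Bdnf passed the filter only through their Resist levels. Of the 21 others, 2 were called higher in Resist vs. Naive, against 4.42% of the genes with at least 1 FPKM in both groups, and 3 lower, against 1.08%, with a median log2 change of 0.03. Btc (betacellulin, an EGF-family ligand) and Wnt5a (a ligand of Ror and Ryk receptors) rose. Btc went from 10.7 ± 1.62 to 22.9 ± 3.61 FPKM (SD, n = 5 each), with a log2 change of 1.03 (limma adjusted p = 0.000265). Wnt5a went from 11.1 ± 1.86 to 20.03 ± 2.42 FPKM (0.80, adjusted p = 0.000955). Bdnf, a ligand of the Trk receptor Ntrk2, was at 0.968 ± 0.272 FPKM in Naive and 4.02 ± 1.52 FPKM in Resist, and Csf1, the ligand of Csf1r, at 0.594 ± 0.278 and 3.30 ± 1.97 FPKM, given with no p-value. The receptor Ntrk2 itself did not exceed 0.01 FPKM and Csf1r did not exceed 0.74 FPKM in these libraries.

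Efnb2 (ephrin-B2), Vegfa and the stress cytokine Gdf15 fell. Efnb2, the ligand of Ephb4, went from 16.1 ± 2.76 to 9.76 ± 2.49 FPKM (SD, n = 5 each), with a log2 change of -0.69 (limma adjusted p = 0.0138), so that ligand and receptor moved in opposite directions. Vegfa had a log2 change of -0.67 (adjusted p = 0.0154) and Gdf15 one of -0.77 (adjusted p = 0.0466). Efna1, a ligand of EphA receptors, went from 50.1 ± 9.39 to 33.8 ± 11.1 FPKM and was not called (-0.60, adjusted p = 0.0538). Efna4, another, went the other way, from 4.55 ± 1.08 to 6.95 ± 1.43 FPKM, under the fold of 1.5 (0.52, limma adjusted p = 0.0427). Efna3 (-0.22, adjusted p = 0.539) and Efna5 (0.15, adjusted p = 0.464) were not called either. Fgf1, which binds all fibroblast growth factor receptors, went from 16.5 ± 2.58 to 12.5 ± 1.803 FPKM and stayed under the fold of 1.5 (-0.37, adjusted p = 0.0417). Fgf18, a ligand of Fgfr3, was at 0.43 to 1.02 FPKM in Naive and 1.12 to 1.4 FPKM in Resist libraries and just under the filter. Hgf and Nrg1, the ligands of Met and Erbb3, did not exceed 0.04 and 0.15 FPKM, and were named after their values were seen.

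Downstream, most tested genes were not called, and the shares of all genes tested to set beside the counts were 5.25% higher and 1.11% lower. Among co-receptors, Cd44 (log2 change 0.65, limma adjusted p = 0.00134) and the proteoglycan Sdc1 (0.77, adjusted p = 0.00393) rose out of 6 tested. Among 19 adaptors, Dok1 (1.00, adjusted p = 0.00193), Nck2 (0.87, adjusted p = 0.00287) and Gab2 (0.66, adjusted p = 0.00221) rose and none fell. Among 19 feedback and turnover genes, the suppressors of cytokine signaling Socs3 (1.06, adjusted p = 0.00978) and Socs2 (0.72, adjusted p = 0.0221) rose, and Errfi1, an inhibitor of ErbB kinases, fell (-0.76, adjusted p = 0.0252). Of 10 ERK target transcripts that are not themselves receptors, Phlda1 rose (0.75, adjusted p = 0.000278). The median log2 changes were 0.08, 0.08, 0.09 and 0.34 in these 4 lists, against 0.03 over all genes tested.

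To ask whether receptor levels in resistant tumors differed without macrophages, Resist was compared with Resist-Mac. These groups came from different batches and separately made tables, so macrophage depletion and batch cannot be told apart. Gapdh, a housekeeping gene, was at 392.3 to 757.5 FPKM in the Naive and Resist libraries, at 4794 to 6387 FPKM in Resist-Mac and at 7105 to 8066 FPKM in Naive-Mac. The neutrophil sum was 394 to 8556 FPKM in Resist-Mac and 57.9 to 6074 FPKM in Naive-Mac, and the macrophage sum, with 7 to 13 markers above 0, was 39.1 to 886 FPKM and 5.42 to 539 FPKM, mostly Lyz2.

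Of 17 receptors tested, 10 were called higher in Resist than in Resist-Mac, against 9.71% of all genes, and 0 were called lower by limma, against 12.0%. Axl, chosen for its level in these Resist libraries, is among the 10. Without Axl, 9 of 16 were called higher, against 9.51% of the genes with at least 1 FPKM in both groups. None of the 16 was called lower, against 11.6%. Without the fold, Ryk was the only tested receptor that was lower in Resist at a limma adjusted p under 0.05. The median log2 change was 0.66 over the receptors and -0.02 over all genes. The tested receptors have longer transcripts than all genes tested, with a median of 4340 bases against 3341, and once each library was corrected for length and GC content, 4 of the 17 were called higher, against 4.01% of all genes, and 0 lower, against 4.76%.

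Those 4 were Erbb3, Fgfr2, Ror1 and Mertk. Mertk was at 2.64, 2.04, 3.27, 3.81 and 2.61 FPKM in Resist-Mac, below every Resist library (log2 change 1.02, limma adjusted p = 0.000483; corrected 0.89, adjusted p = 0.00126). Erbb3 was at 10.25, 9.24, 13.83, 20.51 and 20.44 FPKM, also below every Resist library (1.11, adjusted p = 0.000952; corrected 0.72, adjusted p = 0.00269). Ror1, a receptor for Wnt5a, was at 5.45 to 11.17 FPKM in Resist-Mac and 12.48 to 24.04 FPKM in Resist (1.04, adjusted p = 0.00187; corrected 0.73, adjusted p = 0.0128). Fgfr2 was at 12.05 to 21.04 and 19.92 to 37.08 FPKM (0.87, adjusted p = 0.00229; corrected 0.69, adjusted p = 0.0102). Insr, Igf1r, Met, Ddr2 and Erbb2 lost the call with the correction, Erbb2 also without Resist replicate 4 or Resist-Mac replicate 2, and the change of Igf1r went from 0.73 to 0.03.

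The receptors called higher in Resist vs. Naive were next read in Resist-Mac. Axl was at 6.65, 6.28, 8.21, 3.01 and 0.91 FPKM in Resist-Mac, which overlapped Resist through replicate 5 of that group. Its log2 change was 1.08 (SE 0.40), given with no p-value, since Axl was chosen for its high level in these Resist libraries. That choice can raise both the estimate and the chance of a call. The Axl call was lost with the length and GC correction (0.90) and in 12 further alternatives of 23. Among them were the fits without Resist replicate 1, 2, 3 or 4 or without Resist-Mac replicate 4 or 5. With only the 2 Resist-Mac libraries whose neutrophil markers summed to at most 1000 FPKM, the Axl change was 0.44. Fgfr3 was at 3.16, 0.98, 1.89, 2.78 and 0.87 FPKM (0.62, 95% interval -0.30 to 1.55, limma adjusted p = 0.258). Without Resist replicate 1 its estimate was 0.26 (adjusted p = 0.581).

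Ptk7 and Ephb4 were close to their Resist levels. Ptk7 was at 3.63, 5.52, 6.32, 4 and 5.36 FPKM in Resist-Mac (0.17, 95% interval -0.25 to 0.59, limma adjusted p = 0.503). Ephb4 was at 10.84, 10.97, 13.71, 10.52 and 13.67 FPKM (0.32, adjusted p = 0.0333), under the fold of 1.5. Epha1 was spread over 2.66, 3.88, 6.47, 10.59 and 10.87 FPKM and was not called (-0.19, 95% interval -0.85 to 0.47, adjusted p = 0.648). The 2 highest of these were replicates 4 and 5. Resist vs. Naive and Resist vs. Resist-Mac share the Resist libraries, so their changes are given side by side without a joint test.

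**Figure D4:**
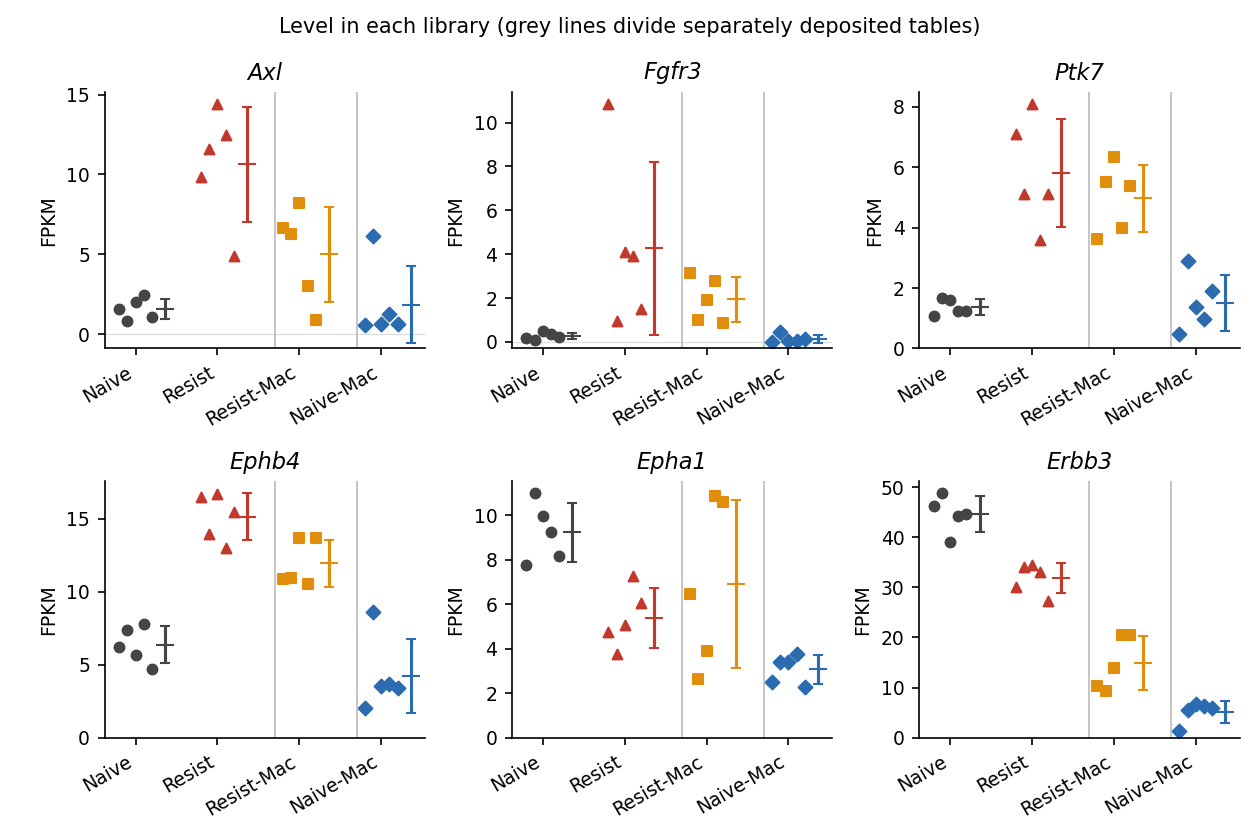
FPKM of 6 receptors in each library of the 4 groups, with the mean and SD (n = 5) beside the points on a linear axis; grey lines divide the separately deposited tables. The first 4 panels show the receptors called higher in Resist vs. Naive, and in Naive-Mac replicate 2 Axl (6.13 FPKM), Ptk7 (2.9 FPKM) and Ephb4 (8.61 FPKM) lie above the other libraries of that group.

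Naive was compared with Naive-Mac in the same way and with the same limit of batch and table. Of 16 receptors tested, 13 were called higher in Naive, against 37.5% of all genes, and 0 lower by limma, against 22.1%. None of the 3 others passed at an adjusted p under 0.05. The median log2 change was 1.58 over the receptors and 0.23 over all genes, and the latter moved to -0.02 with median-ratio scaling, under which the receptors' median was 1.33. With the length and GC correction 7 of 16 were called higher, against 18.9% of all genes, and 1 lower, against 17.9%.

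Insr had one of the steepest differences, at 1.29, 2.15, 2.27, 2.1 and 1.22 FPKM in Naive-Mac against 17.61 to 21.98 FPKM in Naive (log2 change 2.88, limma adjusted p = 9.9e-10; corrected 1.15). Erbb3 was at 1.25, 5.58, 6.71, 6.37 and 5.99 FPKM in Naive-Mac (3.00, adjusted p = 3.51e-07; corrected 1.62), and Igf1r at 3.05 to 5 FPKM (2.63, adjusted p = 9.38e-10; corrected 0.62). Ryk, at 22.12 to 29.9 FPKM in Naive-Mac, was the highest receptor in 4 of 5 Naive-Mac libraries and was not called (0.21, adjusted p = 0.0652).

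Axl did not differ by the test between Naive and Naive-Mac. Axl was chosen partly through its level in these Naive libraries, so its p-values here are a description. It was at 0.59, 6.13, 0.62, 1.23 and 0.64 FPKM in Naive-Mac, where replicate 2 stood apart (log2 change 0.11, 95% interval -0.67 to 0.90, limma adjusted p = 0.78). That library also had the highest Ptk7, Ephb4 and Fgfr3 (0.44 FPKM) of its group and the lowest neutrophil sum, 57.9 FPKM. Without it, the Axl change was 0.52 (adjusted p = 0.0255), under the fold of 1.5. Ptk7 was at 0.49, 2.9, 1.36, 0.96 and 1.89 FPKM in Naive-Mac (-0.02, adjusted p = 0.933), and with the length and GC correction it was called lower in Naive (-1.04, adjusted p = 0.000191). Ephb4 was at 2.01, 8.61, 3.53, 3.66 and 3.39 FPKM (0.59, adjusted p = 0.0447), and the call was lost in 16 of 23 alternatives. These included the length and GC correction, with a change of opposite sign (-0.47, adjusted p = 0.0572), and 8 fits without 1 library, Naive replicate 1, 2, 3 or 4 or Naive-Mac replicate 1, 3, 4 or 5.

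**Figure D5:**
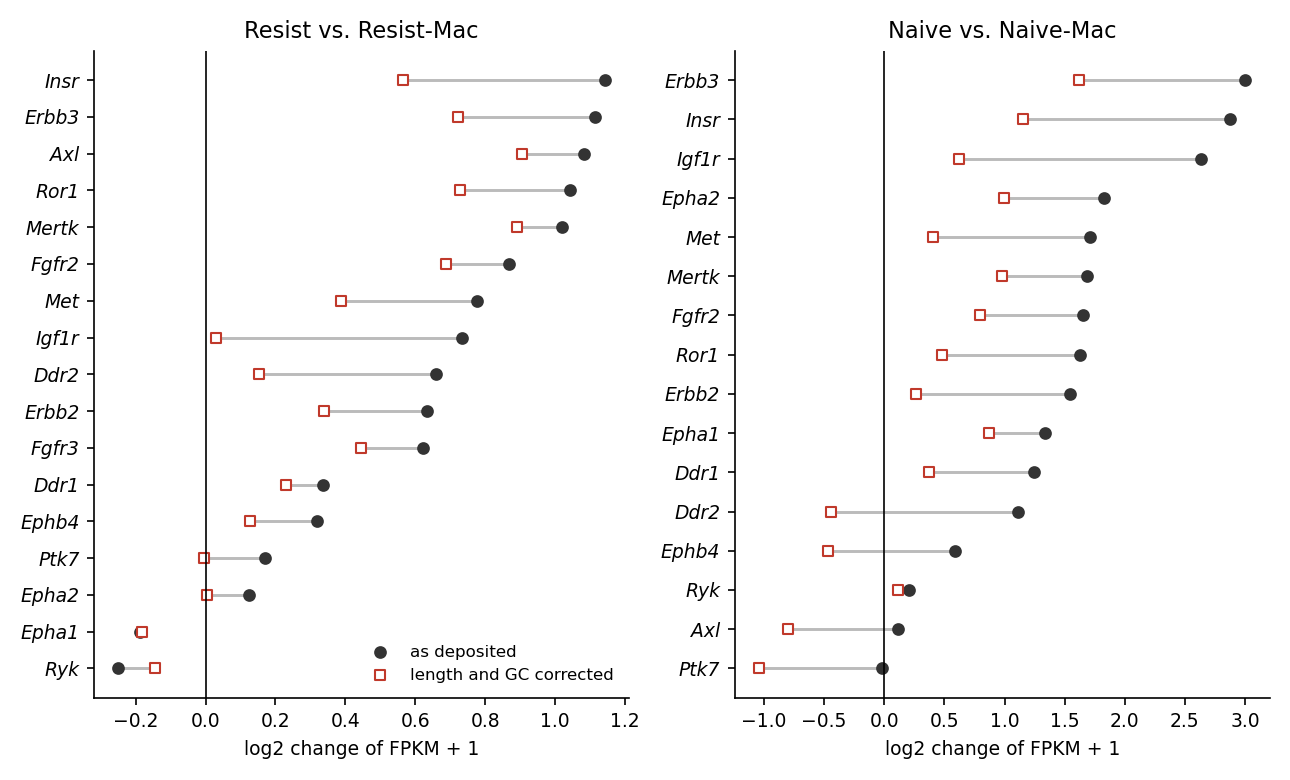
Log2 change of FPKM + 1 for each tested receptor in Resist vs. Resist-Mac and Naive vs. Naive-Mac, as deposited (filled circles) and after the transcript length and GC correction (open squares). In Naive vs. Naive-Mac the correction takes the receptors' median from 1.58 to 0.44 and turns Ddr2, Ephb4 and Axl below 0.

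Resist-Mac and Naive-Mac, which differ in enzalutamide and both received clodronate, stood in separate tables and were not tested against each other. Axl had a mean of 5.01 ± 2.97 FPKM (SD, n = 5) in Resist-Mac and 1.84 ± 2.41 FPKM (SD, n = 5) in Naive-Mac, Ptk7 4.97 ± 1.12 and 1.52 ± 0.928 FPKM, Ephb4 11.9 ± 1.604 and 4.24 ± 2.53 FPKM, and Fgfr3 1.94 ± 1.03 and 0.132 FPKM. Epha1, the receptor that fell in Resist vs. Naive, was at 2.66 to 10.87 FPKM in Resist-Mac and 2.27 to 3.74 FPKM in Naive-Mac. Higher Resist-Mac levels were not particular to these receptors. The summed FPKM of all listed receptors was 294 ± 43.5 in Resist-Mac and 128 ± 26.2 in Naive-Mac (SD, n = 5 each). Among receptors not called in Resist vs. Naive, Insr had means of 11.1 and 1.81, Igf1r 12.8 and 3.91, Met 23.1 and 9.21 and Ryk 36.5 and 25.1 FPKM. Csf1r reached 2.1 FPKM in Resist-Mac, in the library with the highest macrophage and neutrophil sums.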

How the data were processed

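RNA of sorted tumor cells was enriched with oligo dT and sequenced on a BGISEQ-500 as paired ends. The deposited table of Naive and Resist libraries holds log2(FPKM + 1), turned back to FPKM here, and the authors deposited linear FPKM for Resist-Mac and Naive-Mac. The submitters' processing notes name Bowtie2 and mm9 (not GRCm38). The counting tool and annotation are not given in the sources used here. No read counts were given, so the depth of a library and its counting error are unknown. The 752 BGI_novel genes were removed, and 16978 of 17104 Entrez identifiers were named with RefSeq.

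Genes listed in all libraries compared with a mean of at least 1 FPKM were fitted on log2(FPKM + 1) with limma 3.58.1 in R 4.3.3 (trend in the prior variance), using only the groups compared. This scale understates the change of low genes. The study's methods name NOISeq. That program was not run, and a noise-distribution probability was computed after it as an alternative. Length and GC content, from GENCODE transcripts, were regressed out of each library with splines (4 degrees of freedom), for 97.6% to 99.8% of the genes tested. The fit was tested on simulated data. Alternatives were another pseudocount, filters, scaling, quantile normalization, a fold over 2, no trend, a replicate block, all groups in one fit and leaving out each library. Fitting without libraries with over 1000 FPKM of neutrophil markers was chosen after seeing the data.

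Receptors, partner lists, motifs and tests were chosen with earlier results of these data known. Values per library are given for called receptors, Axl, Tyro3, Mertk, receptors whose groups did not overlap and the 5 most abundant. Partner genes were named when called or when a ligand of a called receptor.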

Additional observations from a re-analysis of the deposited data

Results flagged for a closer look

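Of 84 receptor groups of 5 libraries examined, 4 had a library far from the rest. Chance flags about 1 in 20 groups, which is 4.2 of 84. Axl was at 6.13 FPKM in Naive-Mac replicate 2, where the next library had 1.23 FPKM. Ephb4 was at 8.61 FPKM in the same library, where the next had 3.66 FPKM. Erbb3 was at 1.25 FPKM in Naive-Mac replicate 1, and the next had 5.58 FPKM. Pdgfra was at 1.63 FPKM in Resist replicate 5, the library with the highest stromal sum, and the next had 1.1 FPKM.

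In values without the length and GC correction, Erbb3 moved in opposite directions under the same contrast. Every Resist library lay below every Naive library (difference of mean log2 values -0.48), whereas every Resist-Mac library lay above every Naive-Mac library (1.41). The effects differed by -1.89 on the log2(FPKM + 1) scale. The turn was not particular to Erbb3. Igf1r had means of 29.3 in Naive, 21.9 in Resist, 12.8 in Resist-Mac and 3.91 FPKM in Naive-Mac. In the same order, Epha2 had 89.8, 64.2, 59.1 and 24.0 FPKM and Epha1 9.22, 5.37, 6.89 and 3.07 FPKM. Pdgfra, near the filter, had 1.48, 1.13, 0.788 and 0.282 FPKM. With the length and GC correction, Erbb3 had a log2 change of 0.72 in Resist vs. Resist-Mac and of 1.62 in Naive vs. Naive-Mac. The Resist-Mac and Naive-Mac difference is not given with that correction. This difference was not tested, and because Resist-Mac and Naive-Mac are separate tables and batches, treatment and batch cannot be told apart in it.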

How the results depend on the processing

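The 4 receptors called higher in Resist vs. Naive, Axl and Fgfr3 included, became 2 with a mean FPKM of at least 5, as Fgfr3 and Ptk7 were then not tested, and 2 with the noise-distribution probability over 0.8 (Axl and Ephb4). The 1 called lower, Epha1, became 0 with all groups in one fit, 0 with a fold change over 2 and 0 with the probability, and 3 with the transcript length and GC correction. Over all genes, 531 of 10119 were called higher and 112 lower. The filter of 5 FPKM gave 303 of 7753 higher. The one fit gave 96 of 9836 lower, and the correction 161 of 9880 lower. In Resist vs. Resist-Mac the 10 called higher, Axl included, became 4 with that correction, 5 with a fold over 2 and 5 with the probability. Over all genes the correction took the count called higher from 976 of 10049 to 402 of 10027. In Naive vs. Naive-Mac the 13 called higher became 7 with the correction, and the 0 called lower became 1 with it and 1 with quantile normalization. Over all genes, 3691 of 9837 were called higher and 2177 lower, against 1828 and 1733 of 9655 with the correction. Quantile normalization gave 2855 of 9837 lower. Counts over all genes are not given for the fold over 2 or the probability. The 16 partner genes called, Csf1 and Bdnf included, became 4 with a fold over 2 (Btc, Socs3, Csf1 and Bdnf). Leaving out each library gave 4 to 4 higher and 1 to 1 lower in Resist vs. Naive, 8 to 10 and 0 to 0 in Resist vs. Resist-Mac, 12 to 13 and 0 to 0 in Naive vs. Naive-Mac, and 12 to 17 partner genes. Axl, Fgfr3, Csf1 and Bdnf were not left out of these counts.

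Directions turned only where the estimate was small or batches were compared. In Resist vs. Resist-Mac, Ptk7 became -0.0037 with the length and GC correction and -0.0637 with only libraries of low neutrophil markers, where Epha1 became 0.567. In Naive vs. Naive-Mac, Ptk7 became 0.044 with a pseudocount of 0.1 and -0.19 to 0.16 over the fits that left out 1 library, turning without Naive replicate 1 (0.027), Naive-Mac replicate 2 (0.16) and Naive-Mac replicate 5 (0.048). Axl became -0.0402 with median-ratio scaling, -0.488 with quantile normalization, -0.797 with the correction, -0.45 with low neutrophil markers, -0.22 with the noise-distribution means, and -0.021, -0.015 and -0.010 without Naive-Mac replicates 1, 3 and 5 (range over left-out libraries -0.021 to 0.52). Ephb4 became -0.077 with quantile normalization and -0.466 with the correction, Ryk -0.0737 with median-ratio scaling, and Ddr2 -0.446 with the correction. The causes were not tested.

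Libraries that share a number were not paired, since their deviations correlated between -0.160 and -0.028 in Resist vs. Naive. The range was -0.269 to 0.356 in Resist vs. Resist-Mac, the highest in replicate 4, and -0.161 to 0.226 in Naive vs. Naive-Mac. A replicate block gave 4 higher and 1 lower in Resist vs. Naive, and 11 and 0 in Resist vs. Resist-Mac, where Fgfr3 was added. It gave 13 and 0 in Naive vs. Naive-Mac, and 16 partner genes. These counts, too, were taken without leaving out Axl, Fgfr3, Csf1 or Bdnf. Over all genes the block gave 519 higher and 105 lower of 10119 in Resist vs. Naive. It gave 1011 and 1217 of 10049 in Resist vs. Resist-Mac, and 3693 and 2195 of 9837 in Naive vs. Naive-Mac. Depth is unknown, so a receptor listed near 0 is not shown to be absent.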
